A study of Mus musculus with 6 samples.

Results

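Hormones that the liver releases to report its metabolic state were examined in livers of mice exposed to DEHP, or di(2-ethylhexyl) phthalate, which softens plastics. The 9 genes were Fgf21, Gdf15, Angptl4, Angptl8, Ahsg, Fetub, Inhbe, Lect2 and Klb, taken as the rows of the deposited count table that carry these names, 1 row each, of 42380 rows in all. All 9 passed the low-count filter that left 12468 genes for testing. Messenger RNA was sequenced in 6 liver libraries, 3 with DEHP exposure and 3 without (control). Below, DEHP livers and control livers stand for these libraries. The table's columns are headed Control and High, and those headed High were taken as the DEHP samples because the sample titles name no other group beside the unexposed one. The direction of every fold change rests on that match. The labels give no dose, duration, age, sex or strain. They do not say that libraries came from separate animals, so each p reflects only how far these libraries scatter, which may be technical. In bulk tissue, fewer cells of a type and less RNA per cell cannot be told apart.

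Fgf21 is a liver hormone of fasting and nutrient stress. It acts on cells that carry an FGF receptor together with Klb, beta-klotho, its co-receptor. In mice its gene is switched on by the fatty acid receptor PPARalpha, by the stress factor ATF4 and by the carbohydrate sensor ChREBP (Mlxipl). Gdf15 is a stress-induced relative of TGF-beta that lowers appetite through the receptor GFRAL in the hindbrain. Angptl4 and Angptl8 restrain lipoprotein lipase, Angptl4 in fasting and Angptl8 after feeding. Ahsg and Fetub encode the fetuins, abundant plasma proteins of the cystatin superfamily. Ahsg inhibits insulin receptor signalling, and Fetub inhibits the egg-hardening protease ovastacin. Inhbe encodes activin E, which restrains fat breakdown in adipose tissue, and Lect2 is a secreted chemotactic factor of hepatocytes.

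The promoters of 4 members are shown because they hold any of 3 marked elements. No window of Klb, Lect2, Ahsg or Fetub held any of them. Of these elements, the Gdf15 window shown holds AGGTCA only. The 250 bases before the annotated start are RefSeq sequence of build GRCm38.p6, read along the gene's own strand, 5′ to 3′. Capitals mark TGATGCAA, the C/EBP-ATF response element read by ATF4 with a C/EBP partner, CACGTG, an E box core, and AGGTCA, the core hexamer of nuclear receptor elements, each on either strand. On the opposite strand TGATGCAA reads TTGCATCA. The windows are chr7:45615491-45615740 for Fgf21, chr9:21835260-21835509 for Angptl8, chr10:127351849-127352098 for Inhbe and chr8:70632457-70632706 for Gdf15, on the minus strand except for Angptl8.
Fgf21: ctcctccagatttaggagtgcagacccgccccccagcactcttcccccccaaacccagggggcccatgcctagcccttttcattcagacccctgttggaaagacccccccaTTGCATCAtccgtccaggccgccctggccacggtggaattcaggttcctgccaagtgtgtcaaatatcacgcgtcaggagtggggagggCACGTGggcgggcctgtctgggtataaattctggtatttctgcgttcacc
Angptl8: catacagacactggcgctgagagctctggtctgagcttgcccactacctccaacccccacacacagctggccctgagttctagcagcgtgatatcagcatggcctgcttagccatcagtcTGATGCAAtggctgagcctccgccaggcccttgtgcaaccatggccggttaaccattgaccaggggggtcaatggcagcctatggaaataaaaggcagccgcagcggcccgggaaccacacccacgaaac
Inhbe: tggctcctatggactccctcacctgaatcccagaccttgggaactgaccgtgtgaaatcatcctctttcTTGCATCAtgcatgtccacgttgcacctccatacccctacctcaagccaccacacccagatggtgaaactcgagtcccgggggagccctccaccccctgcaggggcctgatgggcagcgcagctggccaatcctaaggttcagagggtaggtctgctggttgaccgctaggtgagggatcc
Gdf15: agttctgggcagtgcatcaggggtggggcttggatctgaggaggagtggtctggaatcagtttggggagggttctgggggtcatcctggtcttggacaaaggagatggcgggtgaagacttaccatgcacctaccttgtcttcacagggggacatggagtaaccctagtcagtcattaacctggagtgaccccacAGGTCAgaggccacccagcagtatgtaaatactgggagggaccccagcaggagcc

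RefSeq windows were found for 8 of the 9 members, 10 windows in all, with Angptl4 not matched. TGATGCAA stood in 3 members, 139 to 132 bases before the start of Fgf21, 130 to 123 before that of Angptl8 and 181 to 174 before that of Inhbe. It stands in 0.791% of the 32851 promoter windows of the same length. CACGTG stood in Fgf21, 50 to 45 bases before the start, where its last base is also the first of a GC box, GGGCGG. It also stood in a second Gdf15 window, that of another annotated start, and stands in 6.02% of all windows. AGGTCA stood in Gdf15 alone of these members (14.0% of all windows). Of the 5 other motifs searched on both strands, the cAMP response element TGACGTCA (1.55% of windows) and the interferon response core, GAAA repeated after any 2 bases (2.98%), stood in no member, TATAAA (12.4%) in Fgf21 and Fetub, CCAAT (33.8%) in Gdf15, Fetub and Inhbe, and GGGCGG (32.7%) in Fgf21 and Fetub. The motifs were chosen with the windows and the values in view, and a match describes letters, not a bound site.

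Total counts were 10410098 to 12405044 in DEHP libraries and 12001969 to 14229803 in control libraries. Control replicates 1 and 2 stood apart from the other 4 libraries in interferon-stimulated genes, whose median log2 level over 22 genes lay 3.61 and 3.46 above the DEHP mean, against -0.22 in control replicate 3. Summed CPM, the standard scaling of read counts by library total, of 11 Kupffer cell and macrophage markers were 273, 397 and 331 in DEHP libraries and 871, 800 and 257 in controls 1 to 3. The 11 hepatocyte markers, all present, summed to 132799 to 168228 CPM in DEHP libraries and 133115 to 182813 CPM in control libraries. Pancreatic acinar cells, another source of Fgf21 in mice, left little trace. Of 9 acinar marker rows 6 were at 0 in every library, among them Prss2, Cpa1 and Pnlip. The list summed to 12.0 to 16.6 CPM in DEHP and 11.7 to 18.0 CPM in control libraries, mostly Cela1. Ctrb1 had 29 counts (2.06 CPM) in control replicate 1, where Fgf21 was also highest, and 0 in every other library. The part of acinar cells in the Fgf21 values was not tested.

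Levels per gene length, given as CPM per kilobase of gene model, differed widely among the members. They were highest for Ahsg, 6607 ± 304 in DEHP and 5664 ± 1541 in control livers (SD, n = 3 each), followed by Fetub, 1205 ± 106 in DEHP and 1199 ± 159 in controls. Lect2 (112 ± 11.2 in DEHP, 119 ± 25.2 in controls), Angptl4 (72.4 ± 13.3 in DEHP, 82.7 ± 30.4 in controls) and Angptl8 (61.4 ± 21.5 in DEHP, 146 ± 112 in controls) formed a middle group. Inhbe (11.8 ± 4.83 in DEHP, 16.7 ± 4.48 in controls), Gdf15 (4.54 ± 2.36 in DEHP, 21.9 ± 20.2 in controls), Klb (3.81 ± 0.453 in DEHP, 3.57 ± 1.30 in controls) and Fgf21 (1.09 ± 0.780 in DEHP, 5.03 ± 4.42 in controls) were the least abundant. In DEHP livers the libraries of Angptl4 and Angptl8 overlapped, as did those of Gdf15 and Klb, while other neighbours in this order did not. In controls Angptl8 ranked just below Fetub, above Lect2 and Angptl4, and these 3 overlapped as neighbours. There Gdf15 ranked above Inhbe with overlapping libraries, and Fgf21 above Klb, again with overlap. Ahsg took 0.963% of all named counts in DEHP and 0.838% in control libraries.

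**Figure D1:**
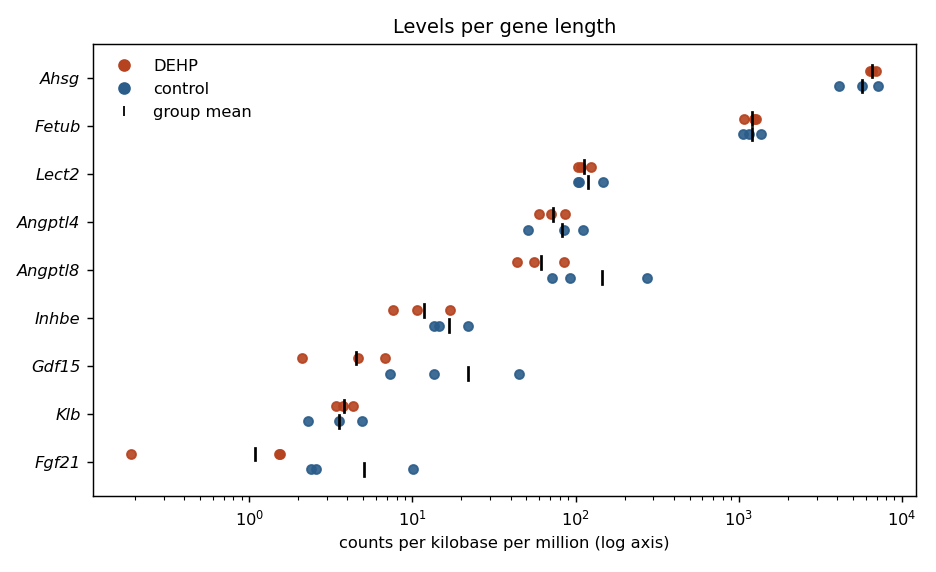
Each point is 1 library's level in CPM per kilobase of gene model, on a log axis, with DEHP libraries above control libraries for each gene and a black bar at the group mean. Ahsg and Fetub lie above all other members in every library, and Fgf21 spreads from 0.188 to 10.1.

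With edgeR's quasi-likelihood test over all genes, 0 of 9 members passed an adjusted p of 0.05, against 0.0722% of genes (0.0561% higher, 0.016% lower). At an unadjusted p of 0.05, 1 of 9, Fgf21, passed, as lower, against 13.1% of genes in either direction and 6.97% as lower. DESeq2 and limma-voom called 0 of 9, against 2.37% and 0.016% of genes. For 2 members, Fgf21 and Gdf15, every DEHP library lay below every control library, and for 0 the reverse. Among all genes tested, 8.57% lay below in this way, 9.17% above and 17.7% in either direction. The median log2 fold change (DEHP over control) was -0.19 over the members, 6 of them negative. Over all genes it was -0.03, with 6600 of 12468 negative.

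**Figure D2:**
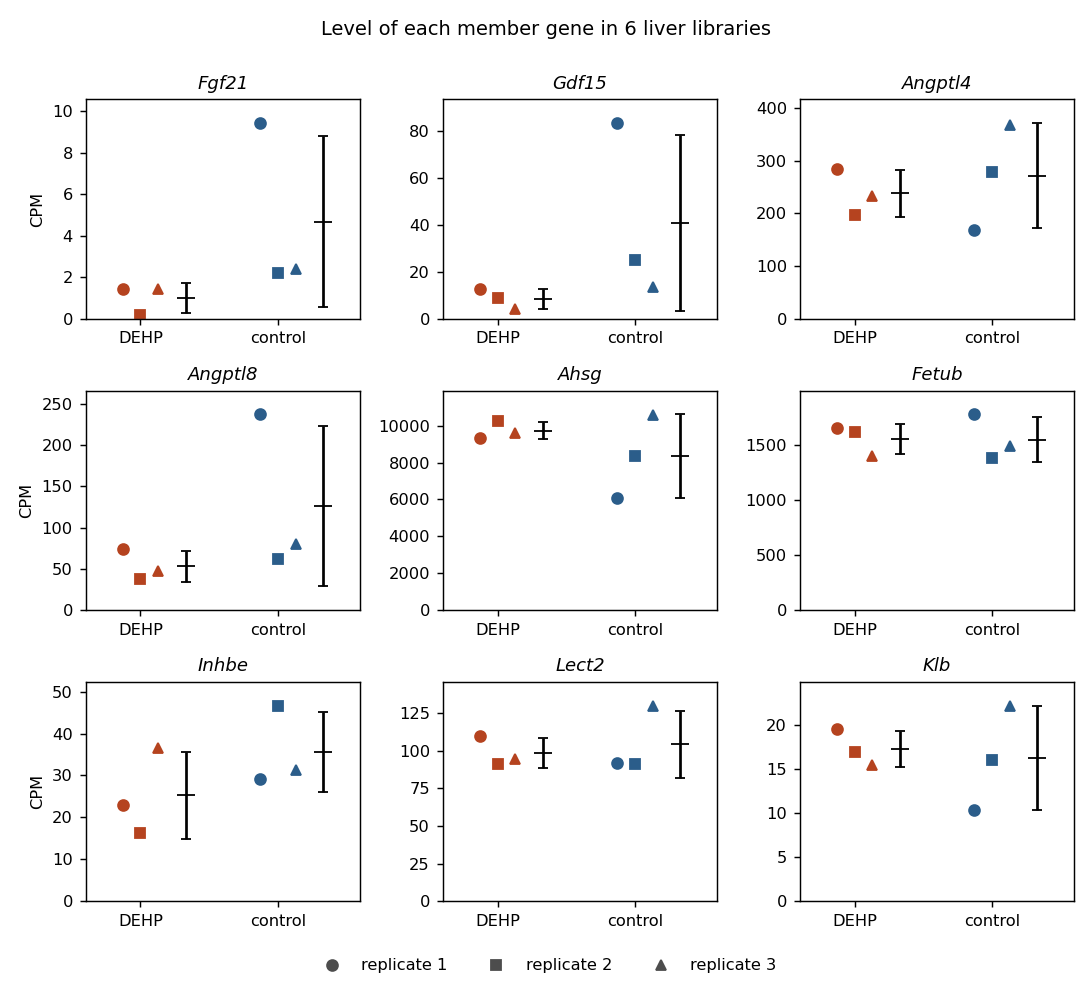
CPM of each member, DEHP libraries left and control libraries right, with a marker per replicate and the mean ± SD beside them. Fgf21, Gdf15 and Angptl8 peak in control replicate 1, at 9.43, 83.3 and 237 CPM.

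Fgf21, on the minus strand of chromosome 7 from 48168081 to 48169664 in the table's coordinates (C57BL/6NJ strain annotation, used for all members, and not comparable with the GRCm38.p6 promoter positions), had the fewest reads of the members in every library. Its reads numbered 14, 2 and 17 in DEHP replicates 1 to 3 and 133, 28 and 27 in control replicates 1 to 3. Scaled, these were 1.42, 0.174 and 1.44 CPM in DEHP livers and 9.43, 2.21 and 2.39 CPM in control livers. The groups did not overlap, and control replicate 1 stood at 4.09 times the mean of the other controls. With so few reads, counting error alone is wide. The exact Poisson 95% interval of DEHP replicate 2 runs from 0.0211 to 0.630 CPM. Those of DEHP replicates 1 (0.775 to 2.38 CPM) and 3 (0.841 to 2.31 CPM) overlap those of control replicates 2 (1.47 to 3.20 CPM) and 3 (1.58 to 3.48 CPM). The log2 fold change was -2.21 ± 0.76 (SE; 95% interval -3.87 to -0.56; unadjusted p = 0.0132, edgeR adjusted p = 0.280). Without control replicate 1 it was -1.18 (edgeR adjusted p = 0.753), and without control replicate 3 it was -2.51 (adjusted p = 0.0912). With no low-count filter the same edgeR test called Fgf21 (-2.18, adjusted p = 0.00804), in a fit that called 2.41% of its genes.

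Gdf15, on the minus strand of chromosome 8 from 73587830 to 73590893, had 12.7, 8.64 and 3.91 CPM in DEHP livers and 83.3, 25.1 and 13.6 CPM in control livers. The groups did not overlap, although DEHP replicate 1 and control replicate 3 lay close together, and control replicate 1 was 4.31 times the mean of the other controls. The log2 fold change was -2.28 ± 0.88 (SE; 95% interval -4.57 to 0.0048; unadjusted p = 0.0503, edgeR adjusted p = 0.382). It was -1.21 without control replicate 1 (adjusted p = 0.601) and -0.68 without control replicates 1 and 2 (adjusted p = 0.988). Macrophages are another known source of Gdf15. Clec4f, the most abundant of the macrophage markers, had 81.0, 104 and 84.7 CPM in DEHP livers and 233, 188 and 70.2 CPM in controls 1 to 3. Marco, C1qa, C1qb and C1qc were also highest in control replicates 1 and 2. Markers of the same list did not all follow. Adgre1 had 2.84, 4.89 and 4.33 CPM in DEHP livers and 4.68, 4.98 and 2.92 CPM in controls. Vsig4 had 18.8, 30.0 and 21.7 CPM in DEHP livers and 27.9, 31.4 and 16.9 CPM in controls. The marker sum, Clec4f and the interferon median, like Gdf15, were highest in control replicates 1 and 2. They were similar between those replicates, however, where Gdf15 had 83.3 and 25.1 CPM. The part of macrophages and interferon in the Gdf15 values was not tested. The GDF15 receptor genes Gfral and Ret had 0 counts in all 6 libraries, which allows levels of up to 0.213 to 0.304 CPM per library (3 counts; counting error only).

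Angptl8, on the plus strand of chromosome 9 from 19851910 to 19853746, had 73.7, 37.6 and 47.9 CPM in DEHP livers and 237, 61.8 and 79.6 CPM in control livers. The groups overlapped through DEHP replicate 1 and control replicate 2, and control replicate 1 again stood alone, at 3.36 times the mean of the other controls. The log2 fold change was -1.25 ± 0.59 (SE; 95% interval -2.73 to 0.22; edgeR adjusted p = 0.444), and -0.41 without control replicate 1 (adjusted p = 0.747). Angptl8 lies within the span of Dock6, a guanine nucleotide exchange factor gene on the other strand. The sources used here do not say whether counting used strand, so reads of the pair cannot be told apart. Dock6 had 27.4, 12.1 and 25.8 CPM in DEHP livers and 54.8, 23.8 and 36.6 CPM in controls. Per kilobase it lay below Angptl8 in every library.

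Angptl4, on the minus strand of chromosome 17 from 34953075 to 34960900, gave the opposite order among controls. It had 283, 196 and 234 CPM in DEHP livers and 168, 280 and 368 CPM in control livers, so the controls spanned the DEHP range on both sides. Angptl4 had a log2 fold change of -0.19 ± 0.26 (SE; 95% interval -0.76 to 0.37; edgeR adjusted p = 0.800), and 0.11 without control replicate 3. Its enzyme target was one of the 9 genes that passed over all genes. Lpl, lipoprotein lipase, had 50.1, 53.5 and 62.5 CPM in DEHP livers and 27.4, 17.7 and 22.2 CPM in control livers. It rose by 1.30 ± 0.21 on the log2 scale (SE, edgeR adjusted p = 0.0339), but missed the threshold with limma-voom (0.105), without control replicate 1 (0.0507), without control replicate 2 (0.225), without both (0.198), without DEHP replicate 2 (0.145) or 3 (0.285) and without robust shrinkage (0.0620). Of 13 tested genes of lipoprotein lipase and its regulators, Lpl was the single one called. At an unadjusted p of 0.05, 3 were higher and 0 lower, against 6.11% and 6.97% of all genes (list median -0.15). Summed CPM of 6 adipocyte markers were 10.6, 9.33 and 37.0 in DEHP livers and 14.4, 6.64 and 12.1 in controls. In DEHP replicate 3, where Lpl was highest, Cfd had 17.2 CPM, against at most 1.34 CPM elsewhere. Adipoq had 25 counts there and 0 in every other library. Plin1 had 7, 0 and 10 counts in DEHP livers and 0 in controls. The part of adipocytes in the Lpl values was not tested.

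Inhbe, on the minus strand of chromosome 10 from 135380705 to 135383075, had 22.9, 16.3 and 36.5 CPM in DEHP livers and 29.1, 46.6 and 31.2 CPM in control livers. The groups overlapped, and control replicate 2 was the highest of the 6. The log2 fold change was -0.50 ± 0.29 (SE; 95% interval -1.13 to 0.13; edgeR adjusted p = 0.494). Left out in turn, DEHP replicate 3 gave -0.86 and DEHP replicate 2 gave -0.25. Inhbc, activin C, the other activin subunit made mainly by liver, had 103, 49.7 and 46.8 CPM in DEHP livers and 77.2, 99.9 and 83.2 CPM in control livers (log2 fold change -0.38 ± 0.28, SE, edgeR adjusted p = 0.611). Of 12 tested genes of activin and inhibin signalling 0 were called by edgeR, DESeq2 or limma-voom. On the lower side, 1 had an unadjusted p under 0.05, against 6.97% of all genes. It was Smad3, a transducer of activin signals, at -0.80 ± 0.29 (SE, adjusted p = 0.290), and Smad7, an inhibitor of the pathway, stood at 0.89 ± 0.41 (adjusted p = 0.383). Smad7 had 25.4, 6.72 and 15.2 CPM in DEHP livers and 8.08, 7.03 and 10.5 CPM in control livers. Its log2 fold change was 0.38 without DEHP replicate 1 and 1.26 without DEHP replicate 2. Acvr1c, whose product ALK7 is the activin E receptor of adipocytes, had 0 counts in all 6 libraries.

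The fetuin genes, neighbours on the plus strand of chromosome 16, varied least in DEHP livers. Ahsg, from 20859340 to 20868716, had 9358, 10232 and 9626 CPM in DEHP livers and 6061, 8385 and 10602 CPM in control livers. The DEHP libraries lay inside the control range, with a coefficient of variation of 4.60% in DEHP and 27.2% in control livers. Its log2 fold change was 0.22 ± 0.23 (SE; 95% interval -0.27 to 0.71; edgeR adjusted p = 0.723), and 0.04 without control replicate 1. Fetub, from 20900549 to 20910976, had 1655, 1614 and 1400 CPM in DEHP livers and 1778, 1379 and 1489 CPM in control livers. The groups overlapped, with control replicate 1 the highest library and control replicate 2 the lowest. Its log2 fold change of 0.01 ± 0.19 had a 95% interval of -0.41 to 0.42 (edgeR adjusted p = 0.993). Across the 6 libraries Fetub spanned 1.29-fold, the narrowest range of the members. Hrg and Kng1, plasma protein genes of the cystatin family just downstream, lay at 0.32 ± 0.20 (SE, log2 fold change, adjusted p = 0.537) and 0.32 ± 0.21 (adjusted p = 0.557). Of 8 tested genes of fetuin, cystatin and insulin receptor function 0 were called and 0 passed an unadjusted p of 0.05 with edgeR, and DESeq2 and limma-voom also called 0.

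Lect2, on the minus strand of chromosome 13 from 57796642 to 57802720, had 109, 91.0 and 94.3 CPM in DEHP livers and 91.6, 91.3 and 130 CPM in control livers. Control replicate 3 was high and the other 5 libraries lay together. Lect2 had a log2 fold change of -0.08 ± 0.20 (SE; 95% interval -0.52 to 0.35; edgeR adjusted p = 0.901). Of its receptors, Met, the hepatocyte growth factor receptor, had a log2 fold change of 0.40 ± 0.19 (SE, adjusted p = 0.387). Tie1, an endothelial receptor kinase, had -0.41 ± 0.32 (adjusted p = 0.625). Summed CPM of 10 sinusoidal endothelial markers were 331, 225 and 418 in DEHP livers and 431, 436 and 535 in controls. The part of endothelial cells in the Tie1 values was not tested. All 3 tested LECT2 receptor genes missed the threshold with edgeR, DESeq2 and limma-voom, and 0 passed an unadjusted p of 0.05.

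Klb, on the plus strand of chromosome 5 from 67663520 to 67699452, had 19.5, 17.0 and 15.5 CPM in DEHP livers and 10.4, 16.1 and 22.2 CPM in control livers. As with Ahsg, the DEHP libraries lay inside the control range and control replicate 1 was the lowest. Klb had a log2 fold change of 0.09 ± 0.27 (SE; 95% interval -0.49 to 0.68; edgeR adjusted p = 0.919), between -0.14 without control replicate 1 and 0.41 without control replicate 3. Among 12 tested genes of endocrine FGF signalling, Klb included, 0 were called by edgeR, DESeq2 or limma-voom. Against 6.11% of all genes as higher and 6.97% as lower, unadjusted p values under 0.05 were found for 1 higher and 1 lower gene. These were Fgf1, a paracrine growth factor, at 0.64 ± 0.22 (SE, adjusted p = 0.254) and Frs3, a docking adaptor of FGF receptors, at -0.997 ± 0.40 (adjusted p = 0.329). Kl, the klotho of FGF23 signalling, and the other endocrine hormones Fgf15 and Fgf23 had 0 counts in all 6 libraries.

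**Figure D3:**
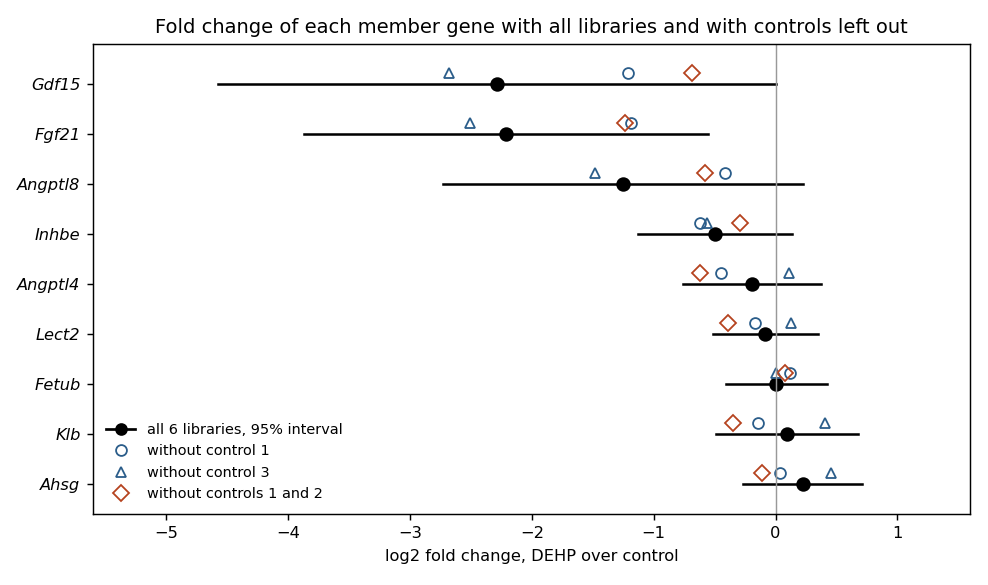
Log2 fold changes of DEHP over control livers, with the 95% interval from all 6 libraries in black and values with control libraries left out as open symbols. Fgf21 stands at -2.21, or at -1.18 without control replicate 1, and the value of every member lies within 1 unit of 0 without control replicates 1 and 2, except Fgf21 at -1.23.

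The members split by how control replicate 1 behaved. Fgf21, Gdf15 and Angptl8 were at least 2-fold higher there than in every other library, a pattern shown by 96 of 12468 genes (0.77%). The threshold was set after these values were seen. Leaving that library out, the other 2 controls averaged 2.27 times the DEHP mean for Fgf21, 2.30 times for Gdf15 and 1.33 times for Angptl8. Angptl4, Ahsg and Klb were lowest of all 6 libraries in control replicate 1, at 0.520, 0.638 and 0.543 of the mean of the other controls. Control replicate 3, without the interferon signal, held the highest value for Angptl4, Ahsg, Lect2 and Klb. Of the 9 members 8 varied more among control than among DEHP libraries in coefficient of variation, Inhbe being the exception, against 51.1% of all genes tested.

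**Figure D4:**
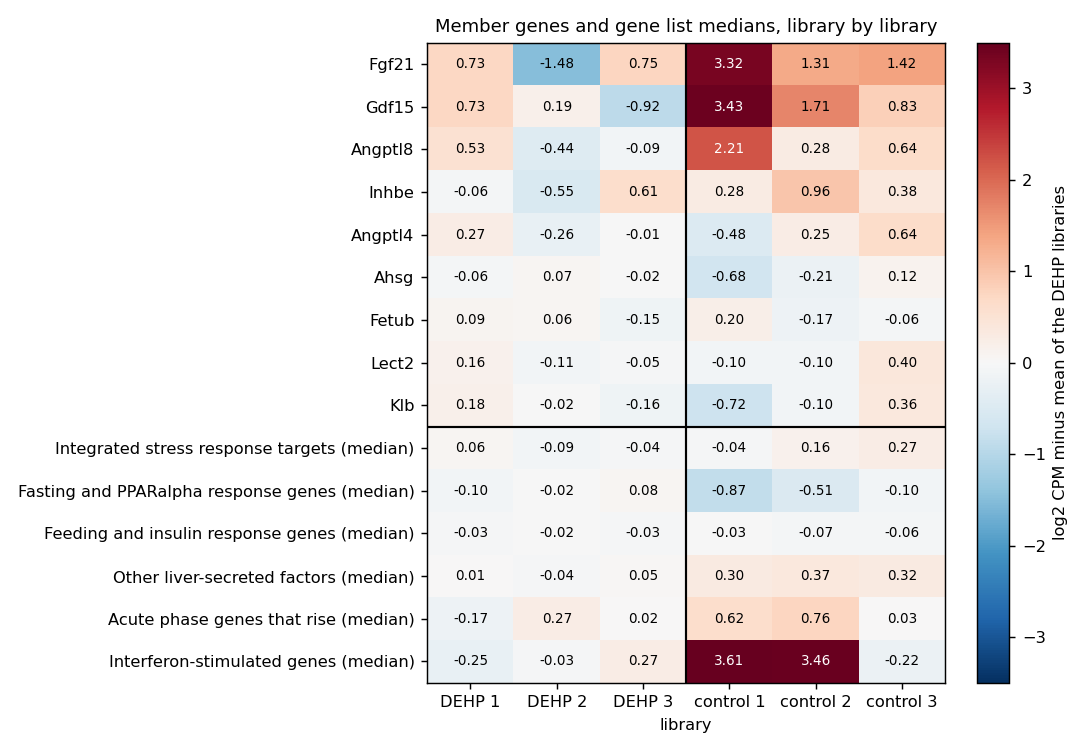
Log2 level in each library minus the mean of the DEHP libraries, for the 9 members (top) and the medians of 6 gene lists (bottom). Control replicate 1 is high for Fgf21 (3.32), Gdf15 (3.43) and Angptl8 (2.21), while interferon-stimulated genes are high in control replicates 1 and 2.

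Genes whose pattern over the 6 libraries was most like a member's were ranked by likeness, measured as the root mean square difference of mean-centred log2 levels among genes of at least 5 CPM. Nearest to Angptl8 were Neat1 (0.16), a long noncoding RNA that builds nuclear paraspeckles, Snhg20 (0.19), a small nucleolar RNA host gene, and Ppp1r35 (0.21). Neat1 had 220, 136 and 176 CPM in DEHP livers and 697, 224 and 226 CPM in control livers. Malat1, another nuclear RNA, chosen after its values were seen, had 301, 324 and 248 CPM in DEHP livers and 450, 244 and 626 CPM in controls. The gene nearest to Fgf21 was the predicted gene Gm10382 (0.25), and the named genes nearest to Gdf15 were Cxcl1 (0.54), a neutrophil chemokine, and Tnfrsf14 (0.55). Angptl4 was closest to Foxk1 (0.11), Mgll (0.12), a monoglyceride lipase, and Wiz (0.13). Distances were below 0.1 for all 3 nearest genes of Ahsg (Ube2f, Psd3 and Trip11), Fetub (Kansl2, Cyp4f13 and Limd1), Lect2 (Pqbp1, Cd81 and Tmem214) and Klb (Trmt112, Cideb and Atf6), and Inhbe lay nearest to Tuft1 (0.15). The measure is not scaled for how much a gene varies, so distances cannot be compared between members. A member that varies little lies near many genes. Nearest genes were picked from at least 9167 candidates for each member.

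PPARalpha and fasting genes, which share a known regulator with Fgf21 and Angptl4, had a positive median, while both of these had negative fold changes. Of 19 tested, 0 were called by edgeR or limma-voom and 4 by DESeq2, all higher, while 9 higher and 0 lower passed an unadjusted p of 0.05 with edgeR (6.11% of all genes passed as higher). Positive were 16 of 19, against 5868 of all 12468 genes. The list median was 0.50, or 0.36 without control replicate 1 and 0.13 without control replicates 1 and 2. Ehhadh, the peroxisomal bifunctional enzyme, had 305, 290 and 322 CPM in DEHP livers and 89.7, 111 and 192 CPM in control livers (log2 fold change 1.22 ± 0.25, SE, edgeR adjusted p = 0.128). Vnn1, vanin, lay at 0.92 ± 0.21 (adjusted p = 0.138). Fgf21 and Angptl4 stood at -2.21 and -0.19 in the same fit. The contrast between these genes was not tested.

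Of 16 tested factors that drive Fgf21, 0 were called by edgeR or limma-voom and 1 by DESeq2 (list median 0.03). An unadjusted p under 0.05 was found for 3, all higher, against 6.11% of all genes as higher. Sirt1, a deacetylase, lay at 0.75 ± 0.25 (SE, edgeR adjusted p = 0.261). Ppara (-0.22 ± 0.21), Mlxipl (-0.13 ± 0.32) and Atf4 (0.15 ± 0.18) had adjusted p values of 0.699, 0.909 and 0.770.

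Integrated stress response targets, a set to which Fgf21, Gdf15 and Inhbe are known to respond, showed no common direction. Of 20 tested, 0 were called by edgeR, DESeq2 or limma-voom, 9 were positive and 11 negative, and the median was -0.03. At an unadjusted p of 0.05, 2 higher and 4 lower passed, against 6.11% and 6.97% of all genes. Atf5, a stress-induced transcription factor, had -0.73 ± 0.25 and Sesn2, a sestrin, 0.94 ± 0.32 (SE, edgeR adjusted p = 0.273 each). Trib3, a target of the ATF4 and CHOP pair picked for that role, had 13.6, 9.60 and 14.8 CPM in DEHP livers and 10.7, 11.7 and 15.1 CPM in control livers, with control replicate 1 the lowest control. Asns, asparagine synthetase, another ATF4 target, had 9.82, 13.4 and 10.7 CPM in DEHP livers and 17.0, 4.27 and 2.57 CPM in controls, with its highest value in control replicate 1. Among 9 tested p53 targets, a pathway that also drives Gdf15, 0 were called by edgeR, DESeq2 or limma-voom, and 3, all lower, had an unadjusted p under 0.05 (6.97% of all genes did as lower). Aen, an apoptosis-enhancing nuclease, had -0.82 ± 0.25 (SE, adjusted p = 0.210) and Phlda3, an inhibitor of Akt, -2.24 ± 0.77 (adjusted p = 0.267). Feeding and insulin response genes had a median of -0.07 with 0 of 13 called by edgeR, DESeq2 or limma-voom. At an unadjusted p of 0.05, 1 was higher and 1 lower, against 6.11% and 6.97% of all genes. The higher gene was Insig1, a brake on sterol synthesis (0.54 ± 0.21, SE, adjusted p = 0.322). The lower was Pklr, liver pyruvate kinase (-0.85 ± 0.37, adjusted p = 0.380). Genes of gluconeogenesis and fasting output had a median of 0.32, with 0 of 10 called by the same tools. At an unadjusted p of 0.05, 2 were higher, against 6.11% of all genes. G6pc, glucose-6-phosphatase, lay at 0.72 ± 0.23 (SE, adjusted p = 0.233) and Igfbp1, an IGF-binding protein of fasting, at 1.03 ± 0.38 (adjusted p = 0.329).

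Other factors that liver secretes were mostly negative in sign. Of 31 tested, 25 had a negative log2 fold change, against 6600 of all 12468 genes, with a median of -0.32. Called lower was 1, against 0.016% of all genes. At an unadjusted p of 0.05, 2 higher and 8 lower passed, against 6.11% and 6.97% of all genes. DESeq2 called 4 lower and limma-voom 0. Serpina12, the serpin vaspin, had 3.44, 8.90 and 4.93 CPM in DEHP livers and 37.3, 24.97 and 23.3 CPM in control livers, and fell by 2.30 on the log2 scale (SE 0.33, edgeR adjusted p = 0.0193). It missed the threshold without control replicate 1 (-2.06, adjusted p = 0.119), without control replicate 2 (0.0750), without both (0.165), without DEHP replicate 3 (0.225) and with limma-voom (0.0927). Further genes of this list, Leap2, Enho and Fgl1, were chosen after their values were seen. Leap2, a liver antagonist of the ghrelin receptor, had 20.4, 20.8 and 23.0 CPM in DEHP livers and 64.4, 27.8 and 54.5 CPM in control livers (-1.19 ± 0.27, SE, edgeR adjusted p = 0.143). Enho, which encodes adropin, lay at -1.0 ± 0.23 (adjusted p = 0.142), with 14.1 to 23.2 CPM in DEHP and 35.1 to 44.7 CPM in control livers. Fgl1, a fibrinogen-like hepatokine of the acute phase, had 409, 532 and 357 CPM in DEHP livers and 1629, 1614 and 440 CPM in controls (-1.51 ± 0.48, adjusted p = 0.290), high in the same 2 controls as the interferon-stimulated genes. Acute phase genes that rise in inflammation had a median of -0.45, and their level lay 0.62, 0.76 and 0.03 above the DEHP mean in control replicates 1 to 3. Of these 24 genes 0 were called by edgeR and 3 by DESeq2, all lower. An unadjusted p under 0.05 was found for 7, all lower, against 6.97% of all genes as lower. Genes that fall in the acute phase had a median of -0.02 over 12 genes, of which edgeR called 0 (1 higher and 2 lower below an unadjusted p of 0.05) and DESeq2 called 1 higher and 1 lower.

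**Figure D5:**
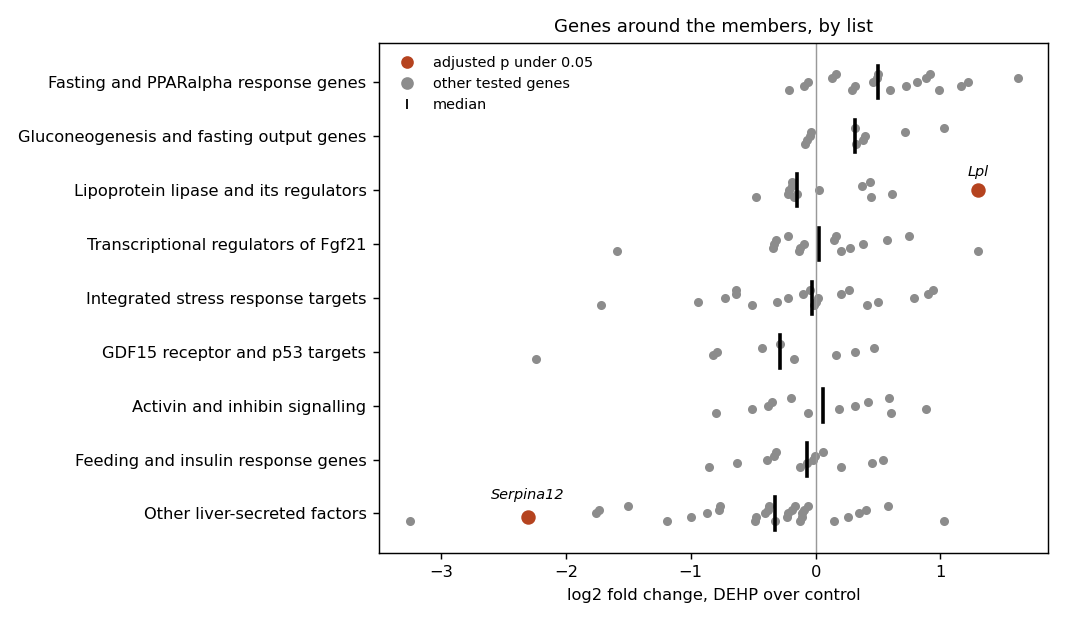
Log2 fold changes (DEHP over control) of the tested genes in 9 lists around the members, 1 point a gene, with the list median as a black bar. Lpl and Serpina12, in large points, are the genes that passed an adjusted p of 0.05, and the PPARalpha list has a median of 0.50.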

How the data were processed

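Paired-end sequencing of polyadenylated RNA from 6 mouse liver samples used a stranded kit, per the labels' protocols. The series' design text describes another assay, so groups come from the sample titles and column headings. The deposited table holds whole-number counts of reads per gene. Build GRCm38.p6 is named in the submitters' processing notes; no aligner, counter or strand setting is named in those sources. Gene identifiers are those of the Ensembl C57BL/6NJ strain annotation, so gene coordinates are the table's own, while promoters are GRCm38.p6. The 1284 rows without a gene name, 2.73% to 4.28% of counts, stayed out. Gene length, per the file headers, scaled levels per kilobase.

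The test was that of edgeR 4.0.16 in R 4.3.3: filterByExpr (minimum count 10), TMM scaling, robust quasi-likelihood test of DEHP against control, two-sided, Benjamini-Hochberg adjustment over 12468 genes, threshold 0.05. A standard error is the log2 fold change over the root of F. CPM divide by the TMM-scaled library total over tested genes, and log2 levels use a prior count of 2. In simulated counts over 12182 genes the test recovered 36% of log2 changes of 1 and 79% of those of 2, with 8 false among 123 calls.

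Members and lists were chosen with earlier results of these data known. All members are named, and from each pathway list the genes past the threshold or else the 2 with the smallest p; other genes were named for their role or after their values were seen, and some listed genes are not reported here. The marker and immune lists reported are given as sums or medians, with some of their genes, and some marker lists are not reported here. For each member up to 3 genes nearest in pattern are given. No 2 libraries of a group agreed within counting noise (chi-square per degree of freedom at least 31.5). Alternatives were DESeq2 1.42.0, limma-voom (limma 3.58.1), other scaling and filters, the fit without robust shrinkage, a replicate block, unnamed rows kept and libraries left out. All members passed the filter, so none needed separate counts.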

Additional observations from a re-analysis of the deposited data

How the results depend on the processing

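The number of genes called, 9 in all libraries, was 496 with no low-count filter, 272 with DESeq2, 2 with limma-voom and 0 without control replicates 1 and 2 (edgeR, 642 genes at an unadjusted p of 0.05; 1 control left, assumed to vary like the DEHP group). With 1 library left out it ran from 5 (DEHP replicate 3 or control replicate 1) to 400 (control replicate 3), with 19 without DEHP replicate 1. Members called were 0, and 1 (Fgf21) with no low-count filter; the cause was not tested. In the 15 alternatives tried for each member Fgf21, Gdf15, Angptl8 and Inhbe kept a negative sign. Fgf21 ran from -2.58 to -1.18, Gdf15 from -2.68 to -0.68, Angptl8 from -1.58 to -0.41 and Inhbe from -0.86 to -0.25.

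Among the members, signs turned for values near 0. With 1 library left out, Angptl4 ran from -0.44 (without control replicate 1) to 0.11 (control replicate 3), Lect2 from -0.17 (control replicate 2) to 0.13 (control replicate 3), Klb from -0.14 (control replicate 1) to 0.41 (control replicate 3) and Fetub from -0.067 (control replicate 2) to 0.12 (control replicate 1), with -0.016 and -0.0083 without DEHP replicates 1 and 2. Without control replicates 1 and 2, Ahsg was -0.11 and Klb -0.35. Pklr, not a member, turned from -0.85 with all libraries to 0.23 there. Without control replicate 3, 5 genes of the PPARalpha list passed, all higher, and 8 acute phase and 23 interferon-stimulated genes, all lower.

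Same-numbered DEHP and control libraries did not deviate together over all genes (correlations -0.02, 0.06 and -0.03). Such a value cannot show whether the numbers pair libraries for some genes, which was not tested. With a replicate block 6 genes and 0 members were called, the smallest adjusted member p being 0.0716, for Gdf15. The block lowered the SE of Gdf15 from 0.88 to 0.27 and that of Angptl8 from 0.59 to 0.23. It raised the SE of Angptl4 (0.26 to 0.28), Inhbe (0.29 to 0.33) and Klb (0.27 to 0.29). Lpl and Serpina12 were not called with the block (adjusted p = 0.144 each). Depth limits Fgf21 most, with 2 to 17 counts in DEHP libraries.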
